A study of Mus musculus with 6 samples.

Results

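The INK4 and KIP cell cycle inhibitors are small proteins that hold cells back from division, and 6 of their genes are described here across the cell types of the proximal pulmonary artery (PA) of young and old mice. The members were named by gene symbol, with Cdkn1a (p21) left out, and they are 6 of 53647 genes listed. The cell types described were chosen by the share of cells with a count of these genes, B cells among them because Cdkn2a was frequent there, so that share is a description. INK4 proteins bind the kinases CDK4 and CDK6 and keep them from cyclin D, so that the retinoblastoma protein stays active and E2F factors stay silent. The INK4 members were Cdkn2a, whose locus encodes p16INK4a and, in another reading frame, p19ARF, together with Cdkn2b (p15), Cdkn2c (p18) and Cdkn2d (p19INK4d). KIP proteins bind cyclin and kinase complexes of CDK2, and the members of this family were Cdkn1b (p27) and Cdkn1c (p57). Cdkn2a is widely used as a mark of senescent cells, Cdkn1b of resting lymphocytes, and Cdkn1c is an imprinted gene expressed from the maternal allele in connective tissue and developing organs.

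Single cell RNA sequencing (10x Genomics, 3′ counting) was performed on proximal PAs of C57BL/6J mice that received no treatment, 1 mouse per library. Tissue was excised with its surroundings, so that airway, mesothelial and lymphoid cells were also captured. There were 2 young libraries of 3 months, a male and a female, and 4 old libraries. By the study's text the old mice were male at 20, 24 and 27 months, and the mouse of 28 months was female. A further young library was not used here. With 1 mouse per library, p-values measure the spread between mice, and age cannot be told apart from depth or handling where these differ.

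Cells were barcodes that reached 500 UMIs (tags that mark single RNA molecules) and 300 genes, with no more than 20% mitochondrial UMIs, and 15409 stayed after doublets were removed. The young libraries gave 2663 and 929 cells, and the old ones 1221, 2802, 3770 and 4024 at 20, 24, 27 and 28 months. Total UMIs per library ran from 6355125 to 50436562, and median UMIs per kept barcode were 841 and 816 in the young libraries, 801.5 at 24 months, 2162 at 20 months, 5465 at 28 months and 8150 at 27 months. Both young libraries and the 24-month library also shared from 131 to 215 kept barcodes pairwise, against at most 4 in any other pair. Xist, expressed by female cells, had 2392 counts in the 20-month library beside 203 of the Y-linked gene Ddx3y and 2 of Eif2s3y, against 46, 5963 and 1873 in the 27-month male, so the sex given for the 20-month mouse did not match its counts. No comparison here was by sex. Without that library 0 members were called with age and 4 between types, as with it, but 6 pairs of member and type were then tested with age against 15. Cell types were named from clusters whose fixed markers were raised, and fibroblast-like, smooth muscle-like and endothelial-like cells are called FBs, SMCs and ECs. The classes fitted below held 3543 SMCs, 2508 B cells, 2129 ECs, 1867 myeloid cells, 1791 FBs, 1369 airway epithelial cells, 802 mesothelial cells and 442 T and NK cells. The clusters that made up a class differed between libraries, and 1107 cells stayed unnamed by type, 422 and 325 of them in the young libraries. Unnamed clusters whose best marker list was a myeloid one were counted in the myeloid class. SMCs of the 24-month library numbered 4 and were left out.

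Cdkn2a lies on the minus strand at chr4:89274471-89294653 and Cdkn2b beside it at chr4:89306299-89311039, in GENCODE M21 on GRCm38. Cdkn2c is at chr4:109660876-109667189 and Cdkn2d at chr9:21288410-21291407, both on the minus strand. The KIP genes Cdkn1b and Cdkn1c are at chr6:134920401-134925513 on the plus strand and chr7:143458339-143461050 on the minus strand. The sequences below show what a count of Cdkn2a can and cannot tell, since both products of the locus use the same second exon. Each holds the last 60 coding bases of exon 1 in lower case and the first 60 bases of exon 2 in capitals, read from the reference genome (GRCm38, chromosome 4, minus strand, 5′ to 3′).
Ink4a, exon 1 chr4:89281986-89282045 and exon 2 chr4:89276926-89276985: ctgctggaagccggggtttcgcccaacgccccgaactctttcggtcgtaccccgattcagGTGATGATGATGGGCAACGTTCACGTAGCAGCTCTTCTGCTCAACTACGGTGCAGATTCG
Arf, exon 1 chr4:89294334-89294393 and the same exon 2: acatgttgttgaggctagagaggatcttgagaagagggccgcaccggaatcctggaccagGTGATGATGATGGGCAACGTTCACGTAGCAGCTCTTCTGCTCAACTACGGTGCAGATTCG
Cdkn2b, exon 1 chr4:89310666-89310725 and exon 2 chr4:89307255-89307314: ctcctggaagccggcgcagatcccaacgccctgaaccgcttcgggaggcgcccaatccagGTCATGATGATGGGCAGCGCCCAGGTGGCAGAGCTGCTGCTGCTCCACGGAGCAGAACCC

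The Ink4a and Arf transcripts were the same in 60 of 60 printed bases of exon 2 and in 12 of 60 printed bases of exon 1. They shared one run of 578 bases that reaches towards the 3′ end, where these libraries were read. A Cdkn2a count here is therefore p16INK4a or p19ARF RNA, and the 2 products were not separated. The neighbour Cdkn2b matched Ink4a in 43 of 60 bases of exon 2 and 42 of 60 of exon 1, but the longest run shared within the last 300 bases of both transcripts was 10 bases, so reads of the 2 genes can be told apart there.

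The members differed widely in level, and Cdkn2a was the rarest of them. Cdkn2a had 233 counts in 134 of 15409 cells (0.870%, exact 95% binomial interval 0.729 to 1.03, which like the other intervals and limits here covers counting error only). Its neighbour Cdkn2b had 259 counts in 238 cells, Cdkn2c 772 in 661 cells and Cdkn2d 1635 in 1381 cells. The KIP genes were found more often, Cdkn1b with 3717 counts in 2752 cells (17.9%) and Cdkn1c with 2906 in 1794 cells (11.6%). Cells of the 27- and 28-month libraries held several times more UMIs than young cells, so levels are given as CPM, the counts summed over all cells of a type in a library and scaled to the same total of UMIs.

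Counts of Cdkn2a were gathered in few cells, and those of Cdkn2b were not. A count of 3 or more was found in 24 cells for Cdkn2a, and these cells held 106 of its 233 counts, with up to 13 in a single cell. For Cdkn2b 3 cells reached 3 counts and held 12 of 259 counts. Cdkn1c was also uneven, with 232 cells that held 1026 of 2906 counts and a highest count of 28, in an FB of the 28-month library.

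**Figure D1:**
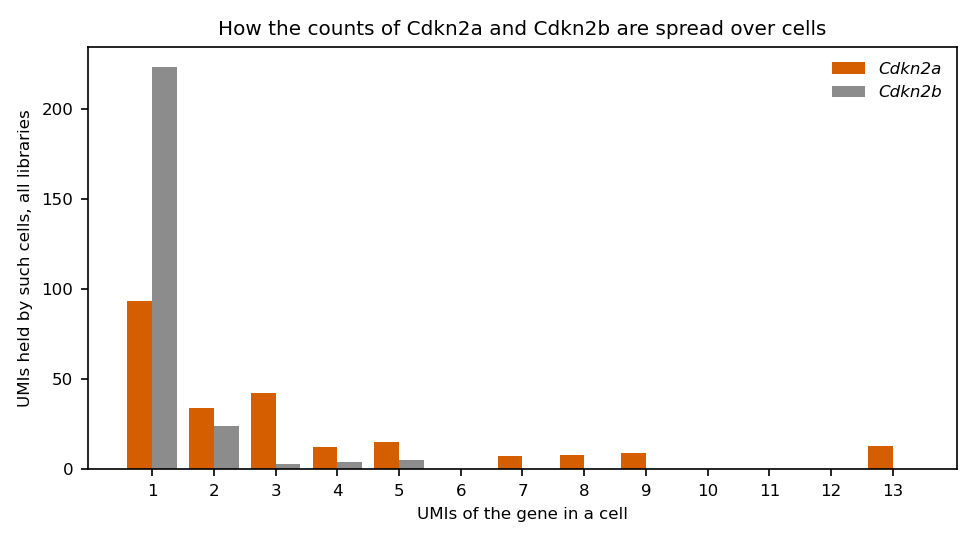
The plot shows how many UMIs of Cdkn2a and of Cdkn2b (y axis) were held by cells with 1, 2 and up to 13 UMIs of that gene (x axis), over 15409 cells. For Cdkn2b 223 of 259 UMIs were single ones, and for Cdkn2a 93 of 233.

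Myeloid cells held 121 of the 233 Cdkn2a counts, in 59 of 1867 cells (3.16%). B cells followed with 58 counts in 38 cells, and mesothelial cells had 16 counts in 7 cells. SMCs, FBs and ECs were nearly without Cdkn2a, with 10 counts in 3543 SMCs, 8 in 1791 FBs and 3 in 2129 ECs. Perivascular macrophages, which the paper also places in the arterial wall, belong to the myeloid class here and are described below. Airway epithelial cells had 3 counts and T and NK cells had 4. Since Cdkn2a was chosen with its frequency in B cells known, its levels across cell types are given with no test.

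Myeloid Cdkn2a was found in every library, and the young libraries were highest. The young male had 18 counts in 452 myeloid cells (39.5 CPM) and the young female 4 counts in 67 cells (64.2 CPM). The old libraries of 20, 24, 27 and 28 months had 32.7, 11.01, 16.4 and 15.5 CPM, from 11, 5, 26 and 57 counts. Old and young libraries did not overlap, with the old mean lower by 33.0 CPM. How often this holds over all genes was not counted, so it is a description. Cdkn2a passed the gene filter of the main age comparison in no cell type and was not tested there. Without a gene filter, the adjusted p of edgeR's quasi-likelihood test for Cdkn2a by age lay between 0.706 and 0.947 over FBs, SMCs, ECs, myeloid and airway cells. B cells are left out of this range, since their Cdkn2a share entered the choice of cell types. In myeloid cells 5 alternatives tested it, with adjusted p of edgeR from 0.743 to 0.865.

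The clusters that held myeloid Cdkn2a were not the same in each library. In the young male 16 of its 18 myeloid counts came from 236 cells of a cluster led by Marco, a scavenger receptor of macrophages (73.0 CPM), and 30 cells of this cluster in the 24-month library held none. A cluster led by Prg4 and Alox15, genes of serosal cavity macrophages, had 58.9 CPM in the young male, 100.7 CPM in the young female and 20.95 CPM at 24 months, from 1, 4 and 3 counts. In old libraries, perivascular MΦs, marked by C1q genes and Cd163, had 36.8 CPM at 20 months, 13.1 CPM at 28 months and 17.0 CPM at 27 months, from 11, 29 and 21 counts, and none in 33 cells at 24 months. The counts of 20 months came from 115 cells of a cluster found in that library alone, whose leading genes were predicted ones and no macrophage markers. Young perivascular MΦs numbered 15 and 2 and held no Cdkn2a count, too few to set a level. Highest of the clusters of 20 or more cells was one of 33 cells led by Zmynd15 and Mmp12, the macrophage elastase, with 29 counts in 6 cells (149 CPM), 27 of them in 5 of 23 cells of the 28-month library. No Cdkn2a count was found in 86 neutrophils, 43 mast cells or 13 lung MΦs.

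**Figure D2:**
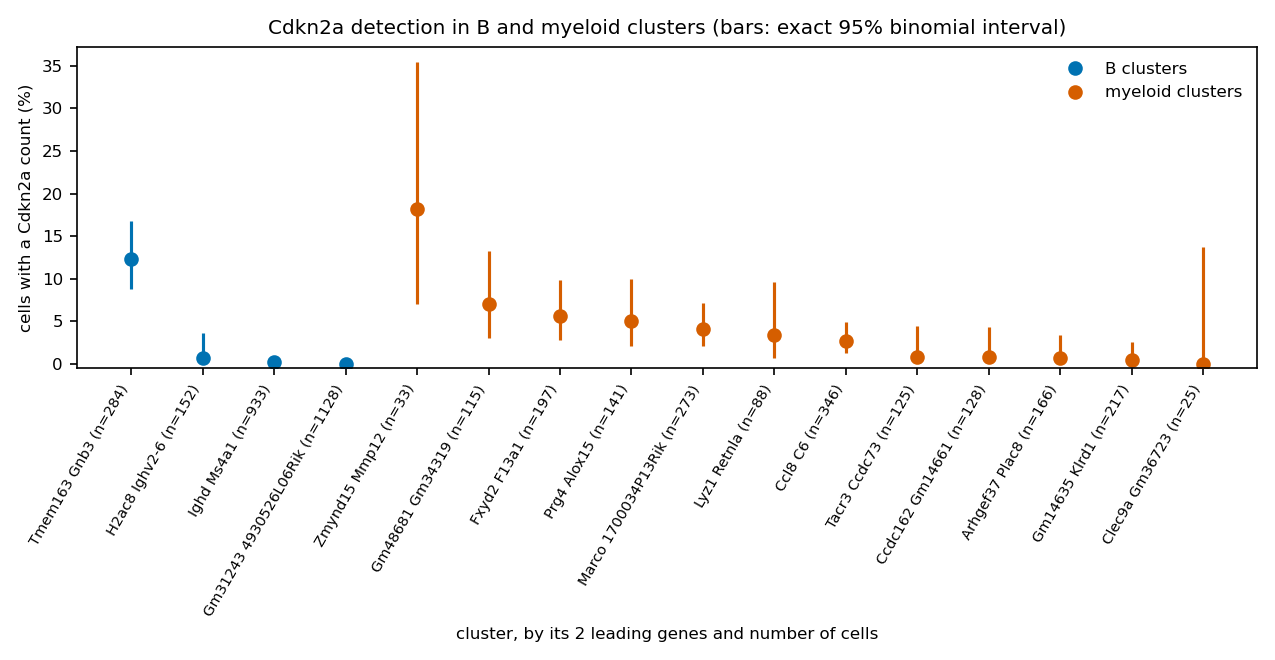
The plot gives the percent of cells with a Cdkn2a count (y axis) for B cell and myeloid clusters of 20 or more cells (x axis, named by 2 leading genes, in separate colours), with exact 95% binomial bars. The cluster led by Zmynd15 is highest at 18.2% of 33 cells, and of the B cell clusters the one led by Tmem163 stands at 12.3% of 284 cells.

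B cell Cdkn2a came almost wholly from the female of 28 months. There it was counted in 35 of 263 B cells (13.3%, interval 9.45 to 18.02), with 55 counts (26.2 CPM). The young male had it in 1 of 1195 B cells and the 24-month library in 2 of 986. None was found in 22 B cells of the young female, in 9 at 20 months or in 33 at 27 months, where a count of 0 allows a share of up to 9.09%. Over all libraries the share was 1.52% (38 of 2508), and without the 28-month library it was 0.134%. Depth moved with this: median UMIs per B cell were 7301 at 28 months, 4012 at 27 months, 781 in the young male and 693 at 24 months, and its part in the difference between libraries was not tested. Thinned to 500 UMIs per cell, the share at 28 months was 0.380%, from 1 of 263 cells.

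Within the 28-month library, Cdkn2a was counted in 2 of 817 FBs (median 6375 UMIs), 1 of 933 SMCs (6624), 1 of 808 ECs (2817.5), 1 of 136 mesothelial cells (6186) and 16 of 573 myeloid cells (2.79%, 5877). Barcodes with under 100 UMIs, a measure of free RNA, held 1 Cdkn2a count in 1149462 UMIs of this library (0.870 CPM), beside 26.2 CPM in its B cells. The part of free RNA and of depth in these shares was not tested. In the young male, by comparison, free RNA held 17.7 CPM of Cdkn2a, above the 0.914 CPM of its B cells and below the 39.5 CPM of its myeloid cells.

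The B cells of the 28-month library with Cdkn2a lay in the cluster that held nearly all of its B cells, 248 of 263. All 35 were among these 248 cells (14.1%), in a cluster led by Tmem163, Gnb3 and Il5ra. Of the 35, 25 cells held 1 count, 5 held 2, 3 held 3, 1 held 4 and 1 held 7. The 33 B cells of the 27-month library were in the same cluster, with no count. Of B cells of the young male 1057 lay in a cluster led by Gm31243, and of those of 24 months 905 lay in one led by Ighd. Of the 284 cells of the Tmem163 cluster, 97.9% held Cd79a and 94.7% Ms4a1, parts of the B cell receptor complex and CD20, and 98.6% held Ighm, the IgM heavy chain. Its cells held genes of several B cell lists, so it is called by its leading genes. Of the B1 list Bhlhe41 was counted in 50.7%, Plscr1 in 47.2%, Cd9 in 38.7%, Zbtb32 in 35.6%, Spn in 25.4% and Cd5 in 16.2%. Of the age-associated list, which also holds Zbtb32, Zbtb20 was counted in 97.5%, Cd80 in 53.9%, Fcrl5 in 46.5%, Nt5e in 6.34%, Tbx21 in 2.11% and Itgax in 1.41%. Of the plasma list Prdm1 was counted in 51.4%, Jchain in 41.9%, Xbp1 in 37.7%, Irf4 in 36.3%, Sdc1 in 10.2% and Mzb1 in none.

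In the 28-month library, B cells with Cdkn2a were compared with those without on fixed gene lists, with no test since 1 library held enough positive cells. The B1 list averaged 0.729 in 35 positive and 0.510 in 228 negative cells, as mean log2 of depth-scaled counts plus 1. The plasma list was 0.794 and 0.669, and the germinal centre list 0.211 and 0.116. The age-associated list was 0.943 and 0.885, the marginal zone list 0.0989 and 0.155, and the list of pro and pre B cells 0.00983 and 0.0166. Positive cells were deeper, with a median of 10711 UMIs against 6871.5, so shares of single genes were compared after thinning to 5000 UMIs. The light chain gene Igkv4-91 was then found in 17 of 34 positive and 53 of 160 negative cells, Ccnd3, a cyclin D, in 14 and 100, and Cdkn1b in 15 and 62. Mdm2 and Trp53, the partners through which p19ARF acts, were found in 11 and 15 of 34 positive cells and in 47 and 53 of 160 negative cells.

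Between cell types the members had distinct patterns, and Cdkn1c differed most. Counts were summed per library and type, and 8 types were compared within libraries by edgeR's quasi-likelihood test over 13676 genes. The 5 members other than Cdkn2a passed the gene filter, and 4 of them differed between types at an adjusted p under 0.05, where 78.0% of all genes tested did. The adjusted p was 4.05e-15 for Cdkn1c, 9.39e-05 for Cdkn2d, 0.000188 for Cdkn1b and 0.000761 for Cdkn2b, and 0.126 for Cdkn2c. DESeq2 gave 0.00484 for Cdkn2c and 0.156 for Cdkn2b, so the calls of these 2 genes depended on the tool. Cdkn2b passed the filter only through sums of the 27- and 28-month libraries, so its values between types are a description. Of 40 pairs of member and type tested against the mean of other types, 14 passed (35%), against 33.5% of the pairs of all genes.

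**Figure D3:**
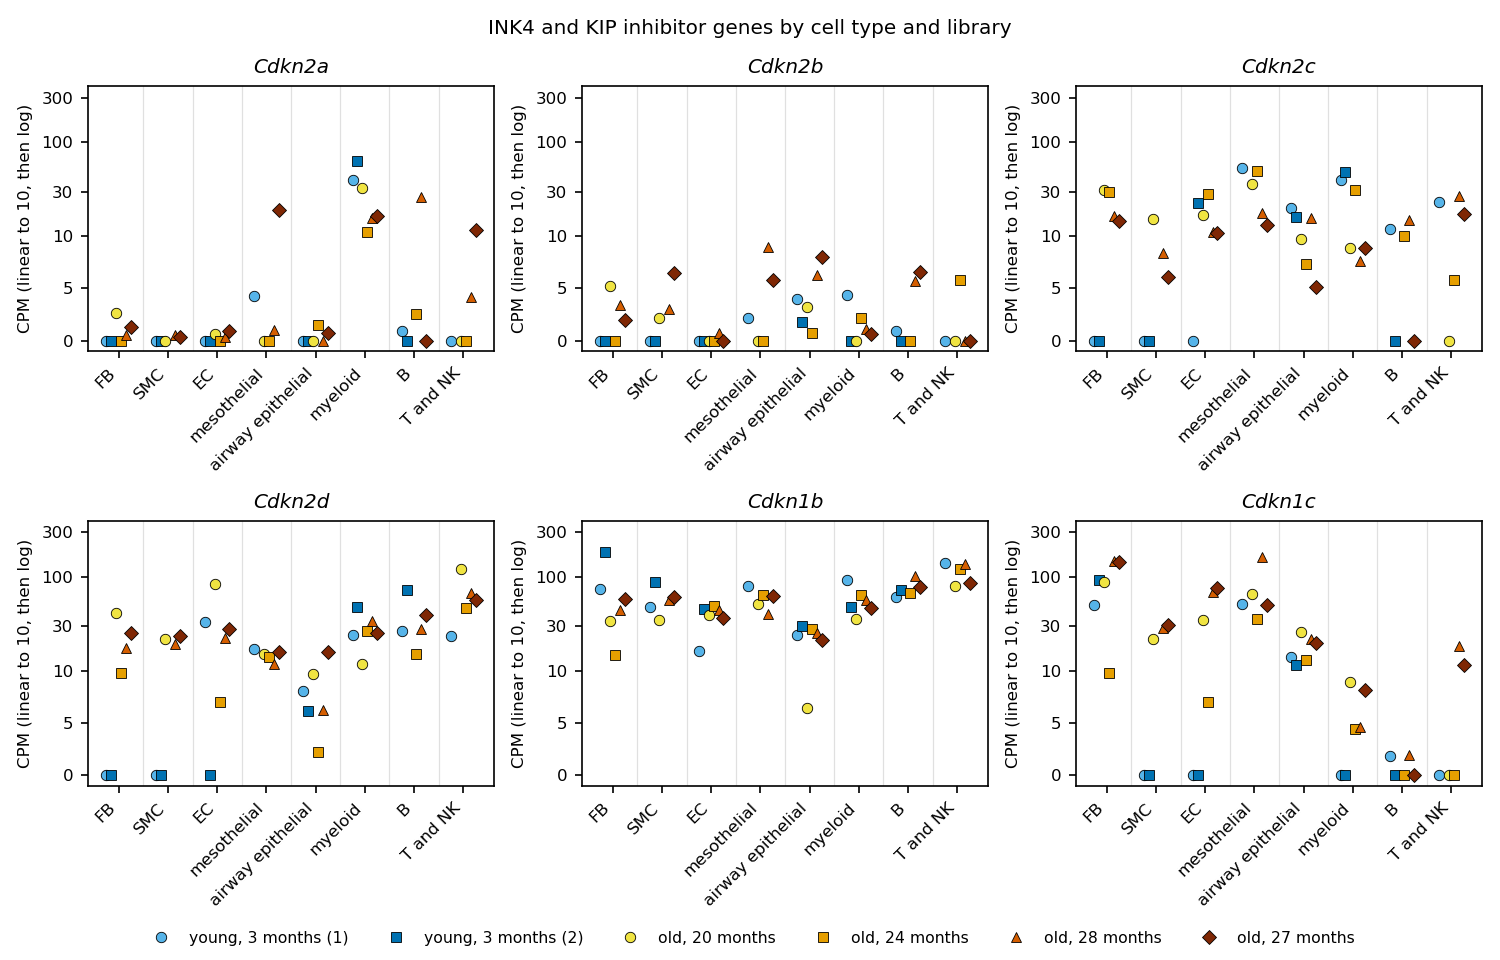
Levels of the members in CPM (y axis, linear up to 10 and logarithmic above) are shown by cell type, 1 panel per gene, with 1 point per library of 10 or more cells of the type, young libraries in blue and old ones in yellow to brown. Cdkn1c is at 145 and 150.5 CPM in FBs of the 27- and 28-month libraries and at 165 CPM in mesothelial cells of the latter, and Cdkn1b is present in each class shown.

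Cdkn1c, the p57 gene, was highest in FBs and mesothelial cells among the 8 types. In FBs it stood at 49.997 and 92.8 CPM in the young male and female and at 88.8, 9.81, 145 and 150.5 CPM at 20, 24, 27 and 28 months. Mesothelial cells had 51.7 CPM in the young male and 66.5, 35.5, 50.7 and 165 CPM in the old libraries in that order. Cdkn1c was found in 34.7% of FBs, 19.6% of SMCs, 11.5% of ECs, 89 of 802 mesothelial cells and 0.199% of B cells. These shares pool all libraries without thinning, so they also depend on depth. Of 3543 SMCs, 2405 came from the 27-month library, which had the most UMIs per kept barcode. Against the mean of other types Cdkn1c was higher in FBs by 2.63 ± 0.26 (log2, SE, adjusted p = 5.1e-13) and in mesothelial cells by 2.23 ± 0.28 (adjusted p = 1.54e-09), directions in which edgeR called 18.5% and 19.0% of all genes. It was lower in B cells by 3.92 ± 0.59 (adjusted p = 1.69e-07), as were 18.1% of genes, with 6 counts in 2508 B cells. These 3 differences passed under all 15 alternatives.

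Blood ECs held Cdkn1c as well, unevenly over their clusters. The old libraries had 34.9, 7.07, 75.8 and 70.1 CPM at 20, 24, 27 and 28 months, and both young libraries had 0 in 87 and 62 cells, which allows up to 49.6 and 68.4 CPM. A cluster of 212 ECs led by Gpihbp1, a lipase anchor of capillaries, had 209 CPM, with 191 CPM at 28 months and 284 CPM at 27 months. Cdkn1c in ECs was higher than the mean of other types by 1.29 ± 0.28 (adjusted p = 0.00021, edgeR), as were 17.0% of genes, and in myeloid cells lower by 2.03 ± 0.42 (adjusted p = 5.12e-05), as were 15% of genes. Both lost their call after thinning, with adjusted p of 0.0799 and 0.0754. The higher level in airway cells (0.82 ± 0.33, adjusted p = 0.0433, edgeR) lost its call under 12 of 15 alternatives, with adjusted p of up to 0.593.

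Within FBs, Cdkn1c also differed between clusters by library. The cluster led by Scara5 and Abca8a, almost wholly of the 27- and 28-month libraries, had 149 CPM, and the cluster led by Tnfaip6 and Pi16, which held most young FBs, had 65.9 CPM. In the Pi16 cluster the young libraries had 54.6 and 92.8 CPM, from 4 and 2 counts, and the old libraries of 20, 24, 27 and 28 months had 90.4, 5.47, 77.7 and 90.5 CPM, so young and old overlapped there.

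Cdkn1b, the p27 gene, was found in each of the 8 types and was highest in lymphocytes among them. T and NK cells had 140.1 CPM in the young male and 80.5, 122.55, 86.5 and 139 CPM at 20, 24, 27 and 28 months. Airway epithelial cells were low in every library, with 24.1 and 30.1 CPM in the young and 6.49, 27.9, 21.2 and 25.2 CPM in the old libraries. Cdkn1b was lower in airway cells by 0.95 ± 0.24 (adjusted p = 0.000996, edgeR), where 9.81% of all genes were lower, and this passed under all 15 alternatives. It was higher in T and NK cells by 0.92 ± 0.25 (adjusted p = 0.00386, edgeR), where 11.3% of genes were higher, and in B cells by 0.61 ± 0.22 (adjusted p = 0.023), where 22.8% were. Without the 28-month library these calls were lost, with adjusted p of 0.09 for T and NK cells and 0.453 for B cells. In all the T and NK call was lost under 3 of 15 alternatives (also with cells named by their own markers and with no gene filter) and the B cell call under 4 (also at 1000 UMIs, thinned and with no gene filter). Of clusters of 20 or more cells, neutrophils had the most Cdkn1b, 63 counts in 86 cells (221 CPM).

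Cdkn2d, the p19INK4d gene, was highest in T and NK cells among the 8 types. T and NK cells had 23.4 CPM in the young male and 121, 46.7, 57.7 and 68.5 CPM in the old libraries of 20, 24, 27 and 28 months. Neutrophils had 203 CPM (58 counts in 86 cells), mast cells 100.4 CPM, and a monocyte and dendritic cluster led by Arhgef37 and Plac8 88.1 CPM. Against the mean of other types Cdkn2d was higher in T and NK cells by 1.30 ± 0.33 (adjusted p = 0.00204, edgeR), and without the 28-month library the adjusted p was 0.0675. It was lower in airway cells by 1.18 ± 0.34 (adjusted p = 0.00353), which passed under all 14 alternatives, and in mesothelial cells by 0.97 ± 0.35 (adjusted p = 0.0287), where 10.3% of genes were lower, which was lost under 6 of 14. In ECs the 20-month library stood apart at 85.4 CPM against 7.07 to 33.0 CPM in other libraries with a count, and 630 of 656 cells of the EC cluster led by Edn1 came from it.

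Most counts of Cdkn2b, the p15 gene next to Cdkn2a, lay in SMCs, the class that also held the most UMIs. Its level there was low, and the old SMC values of 2.21 to 6.46 CPM lay within the airway range of 0.735 to 8.04 CPM. SMCs held 164 of its 259 counts, 145 of them in 2405 SMCs at 27 months (6.46 CPM), 18 in 933 at 28 months (3.01 CPM) and 1 in 145 at 20 months (2.21 CPM). The young SMCs numbered 23 and 33 and had none, which allows up to 144 and 132 CPM. The SMC cluster led by Ccn3, a matricellular protein, had 8.24 CPM, with 694 of its 705 cells from 27 months, and the cluster led by Sost had 4.74 CPM. Cdkn2b passed the gene filter only through airway cells and SMCs at 27 months and mesothelial cells at 28 months. Its differences between types are therefore a description, and without either library or after thinning it was not tested. Among the 8 types, Cdkn2b was higher in airway cells than the mean of others by 1.76 ± 0.52 (adjusted p = 0.00453, edgeR), where 28.2% of genes were higher. Airway levels ran from 0.735 to 8.04 CPM beside free RNA of 0.870 to 4.85 CPM, and with shared barcodes left out the adjusted p was 0.0535. ECs had 2 Cdkn2b counts in 2129 cells, lower than other types (adjusted p = 0.00259, edgeR), as were 9.51% of genes, a call lost without the 24-month library and with cells named by their own markers (adjusted p = 1 in both). The SMC level did not pass the test against other types.

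Cdkn2c, the p18 gene, did not pass the test between types. Mesothelial cells had 53.9 CPM in the young male and 35.8, 49.7, 13.04 and 17.9 CPM at 20, 24, 27 and 28 months, above other types by 0.79 (log2) with an adjusted p of 0.059 in edgeR. Of clusters of 20 or more cells its highest level was in adipocytes, 24 cells of 5 libraries led by Cfd, Car3 and Adipoq, with 30 counts in 12 cells (244 CPM). The same adipocytes held 10 Cdkn2b counts in 4 cells (81.4 CPM) and 3 Cdkn2a counts in 1 cell, and none of Cdkn2d, Cdkn1b or Cdkn1c.

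Cells with counts of both genes of an INK4 pair ran from 9 for Cdkn2a and Cdkn2b to 107 for Cdkn2c and Cdkn2d. How many would fall together at random was not tested. Cdkn2a and Cdkn2b, whose genes are neighbours, were found together in 9 cells, of 134 with Cdkn2a and 238 with Cdkn2b. Cdkn1b and Cdkn1c were found together in 563 cells. Over 13 cell classes, the levels of Cdkn2a and Cdkn2b had a Pearson r of 0.19 as a description, against 0.61 for Cdkn2d and Cdkn1b, 0.57 for Cdkn2c and Cdkn1c and -0.54 for Cdkn2b and Cdkn1b. These values share libraries and depth.

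The genes most like a member across the same 13 classes were named among 18067 genes by Pearson r of mean log2(CPM + 10). For Cdkn2a they were Spic, a factor of iron-recycling macrophages, with r of 0.979, then Gm14635, Gbp2b, 4930554G24Rik and Saa3. For Cdkn2b they were Pex11g (0.925), Rap1gap, 4933424G05Rik, Gm12693 and Tekt3, and for Cdkn2c Dand5 (0.894), Sra1, Gm49173, Sugct and Sgsh. Cdkn2d was most like Pstpip1 (0.933), Jaml, Pag1, Ttc7 and Diaph1, genes found in leukocytes for the most part. Cdkn1b was most like Tinf2 (0.884), and Treml2, Tmem71 and Raet1e were also among its 5 genes, and Cdkn1c like Nbl1 (0.961), Morc4, Serping1, L3hypdh and Rgma. With 13 classes such values order genes and do no more.

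Old libraries were then compared with young ones within FBs, SMCs, ECs, myeloid cells, B cells and airway cells. The question was whether the inhibitors, as marks of arrested cells, stood higher with age. Of 36 pairs of member and type, 15 passed the gene filter (Cdkn1b in 6 types, Cdkn1c and Cdkn2d in 4 each, Cdkn2c in 1), and 0 were called at an adjusted p under 0.05 by edgeR's quasi-likelihood test. At an unadjusted p under 0.05 there were 2 of the 15, Cdkn1b in FBs and Cdkn1c in ECs, and DESeq2 called 0 with 1 such p. The filter kept genes counted in enough cells of several libraries, which deeper libraries reach more easily. Cdkn1c in SMCs, ECs and airway cells, Cdkn2d in its 4 types, Cdkn2c in FBs and Cdkn1b in ECs passed through old libraries alone. Values and p-values of the pairs that passed in this way, Cdkn1c in ECs among them, are a description. Among all genes edgeR called 0.0443% in FBs and 0.0% in SMCs, ECs, myeloid, B and airway cells, and those with an unadjusted p under 0.05 were 6.53% in FBs, 8.14% in SMCs, 5.86% in ECs, 5.22% in myeloid cells, 6.45% in B cells and 6.15% in airway cells. The lowest adjusted p of a member was 0.615, for Cdkn1c in SMCs, and over all 17 settings it was 0.28.

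Of the 15 pairs tested, Cdkn1b in FBs had the lowest unadjusted p among those with counts in both groups. The young male and female had 75.0 and 185.5 CPM, from 6 and 4 counts, and the old libraries of 20, 24, 27 and 28 months had 34.0, 14.7, 58.7 and 44.4 CPM. The old libraries lay below the young ones, by a fitted 1.35 ± 0.63 (log2, SE) lower, with an unadjusted p of 0.0463 and an adjusted p of 0.757 in edgeR. How often all genes lie apart like this was not counted, so it is a description. The unadjusted p of edgeR was 0.0726 with shared barcodes left out and 0.124 with no gene filter. Most young FBs lay in the Pi16 cluster, and most FBs of 27 and 28 months in the Scara5 cluster. For Cdkn1b in ECs, SMCs and airway cells, old and young libraries overlapped, and the fitted differences were 0.52 ± 0.75, -0.04 ± 0.87 and -0.49 ± 0.44.

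Several members had counts in old wall cells and none in young ones, where few young cells were captured. Cdkn1c in SMCs had 22.1, 30.5 and 28.6 CPM at 20, 27 and 28 months and 0 in both young libraries, and Cdkn2d in SMCs had 22.1, 23.4 and 19.4 CPM against 0. A count of 0 in the young SMCs allows up to 144 and 132 CPM, above each of these old values, so a difference was not detectable at this depth. In FBs, Cdkn2c had 31.4, 29.4, 14.5 and 16.4 CPM and Cdkn2d 41.8, 9.81, 25.4 and 17.6 CPM at 20, 24, 27 and 28 months, against 0 in both young libraries, where up to 37.5 and 139 CPM are allowed. This pattern depended on how cells were named: with FBs named by each cell's own markers, the fitted difference of Cdkn2c turned to -0.70 ± 0.80 (adjusted p = 0.9, edgeR) and that of Cdkn2d was 1.32 ± 1.07 (adjusted p = 0.819). Cdkn1c in ECs passed the gene filter through old libraries alone, so its values are a description, and it was not called (adjusted p = 0.846, edgeR). Its values at 27 and 28 months exceeded the limits of both young libraries, and those at 20 and 24 months did not. The EC cluster led by Gpihbp1, where Cdkn1c was high, held 175 and 30 cells at 28 and 27 months and 2 in each young library.

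Cdkn2c in myeloid and airway cells missed the gene filter and was not tested with age in the main fit. Under alternatives that did test it, the adjusted p of edgeR ran from 0.553 to 0.865 in myeloid cells. In airway cells it ran from 0.664 to 0.814. The lowest unadjusted p of edgeR was 0.0194 in myeloid and 0.0166 in airway cells, with old libraries lower. Myeloid cells had 39.5 and 48.2 CPM in the young male and female and 8.91, 30.8, 8.85 and 7.61 CPM at 20, 24, 27 and 28 months. The clusters behind these values differed between libraries. In the young male, monocyte and dendritic cells held 1 of 18 counts and perivascular MΦs 0, and the rest lay in unnamed clusters. Monocyte and dendritic cells had 9.37 and 74.6 CPM in the young male and female, from 1 count each, and 5.78 and 6.89 CPM at 24 and 28 months. Airway cells had 20.1 and 15.9 CPM in the young and 9.73, 7.35, 5.12 and 15.8 CPM in the old libraries. In both types each old library lay below the young ones, in airway cells by as little as 15.8 against 15.9 CPM, and how often all genes do so was not counted. Free RNA held 13.2 and 11.4 CPM of Cdkn2c in the young libraries and 13.1, 6.30, 4.98 and 13.9 CPM in the old ones, so airway values lay near it and at 20 months below it.

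The share of all cells with a Cdkn2a count was also compared, with each cell thinned to 500 UMIs so that depth was equal. Thinning was a single random draw, and the spread between draws was not examined. Thinned shares were 0.3004% and 0.323% in the young male and female, and 0.164%, 0.143%, 0.106% and 0.224% at 20, 24, 27 and 28 months. Every old library lay below both young ones, 0.159% ± 0.0492 (SD, n = 4) against 0.312% ± 0.0159 (SD, n = 2), a difference of -0.153 percentage points (two-sided exact permutation test, p = 0.133, the smallest p that 4 against 2 libraries allow). Unthinned, the order turned, with 0.601% and 0.646% in young and 0.819%, 0.321%, 0.849% and 1.52% in old libraries, a difference of 0.253 percentage points. The 28-month value includes the 35 B cells with a count that entered the choice of cell types, so this order is a description. With B cells left out the unthinned difference was -0.152 (p = 0.533) and the thinned one -0.289 (p = 0.133, both exact permutation tests). Free RNA of Cdkn2a stood at 17.7 and 7.09 CPM in the young male and female and at 8.495, 3.86, 2.36 and 0.870 CPM at 20, 24, 27 and 28 months, an order that differed from that of the thinned shares, and its part was not tested.

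**Figure D4:**
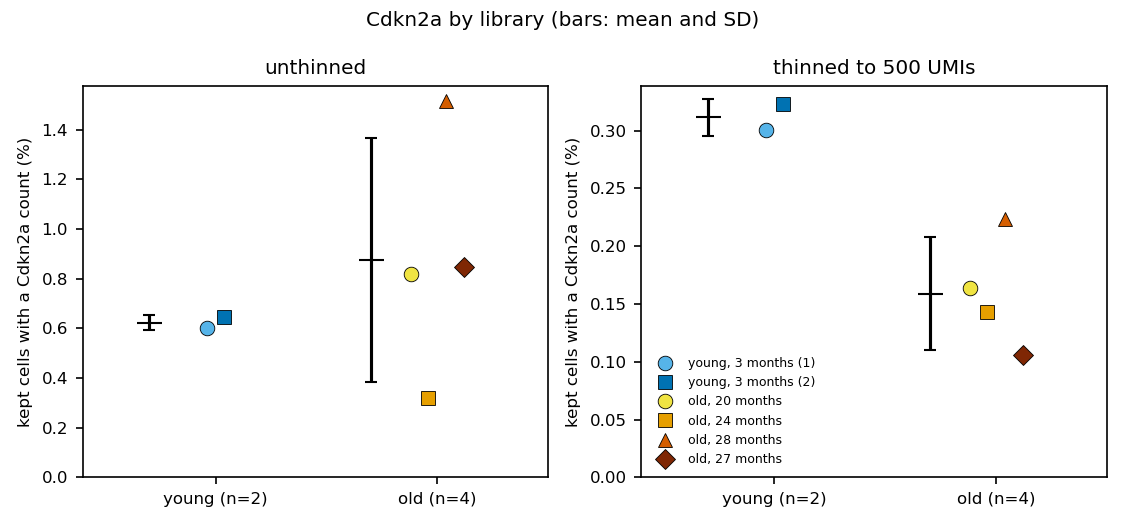
The plot gives the percent of kept cells with a Cdkn2a count (y axis) in each library, unthinned and after thinning to 500 UMIs, for young and old libraries, with points for libraries and the mean and SD of each group. Thinned, both young libraries (0.3004% and 0.323%) lie above the old ones (up to 0.224%), and unthinned the 28-month library is highest at 1.52%.

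These thinned shares rest on 30 cells with a count, of which 18 were myeloid and 3 were B cells. Among myeloid cells alone it was 1.55% and 1.49% in the young libraries and 0.741%, 0.522%, 0.389% and 1.05% at 20, 24, 27 and 28 months, a difference of -0.846 percentage points (p = 0.133, exact permutation test). With myeloid cells left out the difference was -0.0519 (p = 0.667, exact permutation test). The thinned shares of other members overlapped between young and old libraries, with differences of -0.00196 for Cdkn2b, -0.0073 for Cdkn2c, 1.12 for Cdkn2d, 0.379 for Cdkn1b and 1.38 percentage points for Cdkn1c (p from 0.267 to 1, exact permutation tests).

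Members were next compared between cells that held RNA of proliferation genes and cells that held none. Cycling cells held 2 or more UMIs over 19 proliferation genes, among them Mki67, Top2a, Hmgb2, Stmn1 and Tubb5, and numbered 60 to 346 per library. Of these cells 33.3% were B cells and 19.8% myeloid cells. The name cycling stands for this rule, and division itself was not examined. Cdkn2c was found more often in cycling cells in 6 of 6 libraries, after thinning to 500 UMIs, in 1.99% against 0.656% on average. The difference was 1.33 ± 1.36 percentage points (SD, n = 6 libraries, exact sign-flip permutation test p = 0.03125, the smallest that 6 libraries allow, and 0.188 after adjustment over 6 members). A single member at that smallest p cannot pass the adjustment, so the test could not call Cdkn2c alone. Per library the difference was 2.55 and 1.26 in the young male and female and 0.374, 0.000722, 0.431 and 3.38 at 20, 24, 27 and 28 months, so the 24-month library was close to 0. Taken within cell types the mean difference was 1.47, and in cells of at least 1000 UMIs 1.18, with 4 of 6 libraries higher.

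**Figure D5:**
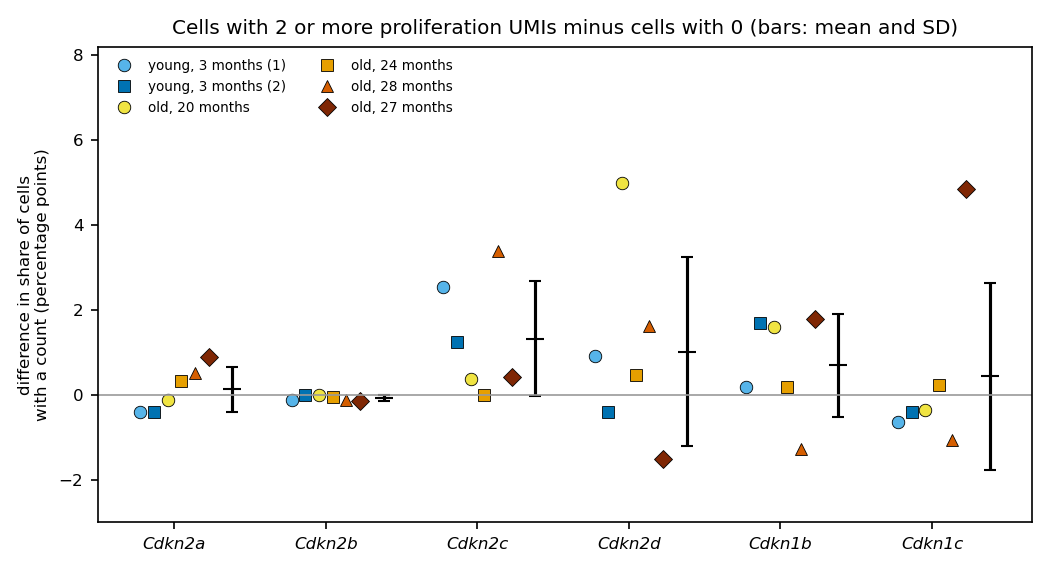
The plot gives, for each member, the percent of cycling cells with a count minus that of other cells (y axis, percentage points, after thinning to 500 UMIs), with 1 point per library and the mean and SD over 6 libraries. Cdkn2c is above 0 in 6 of 6 libraries, Cdkn2b is at or below 0 in each, and the other members have libraries on both sides of 0.

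By cell type, Cdkn2c in cycling and other cells stood at 1.62% and 0.240% of B cells, 2.73% and 0.465% of myeloid cells, and 4.69% and 0.358% of T and NK cells, from 5, 5 and 3 cycling cells with a count. In ECs it was 1.03% and 0.942%, and in SMCs 0 of 67 and 0.308%. The other members differed in mean by 0.135 (Cdkn2a), -0.0698 (Cdkn2b), 1.02 (Cdkn2d), 0.701 (Cdkn1b) and 0.439 percentage points (Cdkn1c), with adjusted p from 0.313 to 0.969 in the same exact test.

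Genes of the surrounding pathway were taken from 7 fixed lists of 55 genes, of which 53 were in the files and 46 passed the filter between types. With age 0 of 163 pairs of gene and type were called by edgeR, and 12 had an unadjusted p under 0.05, with a lowest adjusted p of 0.604. Between types 40 of the 46 genes were called in at least 1 type, where 83.5% of all genes tested were, so the counts per list that follow describe the lists and set none of them apart, and 135 of 368 pairs (36.7%) passed, against 33.5% of the pairs of all genes.

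Of the INK4 targets, 5 of 5 were called. Ccnd1, a cyclin D, was higher in airway cells by 3.502 ± 0.26 (adjusted p = 4.7e-16, edgeR), also higher in ECs, FBs, mesothelial and myeloid cells, and lower in SMCs by 3.53 ± 0.51, in B cells and in T and NK cells. Ccnd2 was higher in B cells (1.04 ± 0.26) and in T and NK cells and lower in FBs and myeloid cells, Ccnd3 was higher in T and NK cells, Cdk4 in airway cells, and Cdk6 in T and NK cells (1.34 ± 0.27), airway and myeloid cells and lower in B cells, FBs and SMCs. Of 6 KIP targets 1 passed the filter, Cdk2, which was higher in myeloid cells (0.66 ± 0.27).

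Of the pocket proteins and E2F factors, which INK4 and KIP proteins act on in the end, 10 of 11 were called. E2f2 was higher in B cells by 3.97 ± 0.33 (adjusted p = 3.7e-15, edgeR), in T and NK cells and in myeloid cells, and lower in SMCs by 5.06 ± 0.66. E2f1 was higher in myeloid cells (2.40 ± 0.28) and FBs, E2f3, Rb1 and Rbl1 in B and myeloid cells, E2f4 in B cells, E2f5 in ECs and airway cells, Rbl2 in T and NK cells and Tfdp2 in mesothelial cells. Lower levels were found for E2f1, E2f3, Rb1 and Rbl1 in SMCs, for E2f6 and Tfdp2 in myeloid cells and for E2f5 in B cells, among others.

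Of the list named for the breakdown of p27, 4 of 6 genes were called, and the part of each listed gene in that breakdown was not examined. Skp2, the ligase part that marks p27 for destruction, was higher in B cells by 1.55 ± 0.40 (adjusted p = 0.00116, edgeR), where Cdkn1b was also higher, and Cks1b, its partner, was higher in B cells and FBs and lower in ECs by 1.77 ± 0.35. Rnf123 was higher in SMCs (1.09 ± 0.26) and B cells and lower in ECs, FBs and myeloid cells, and Fbxo4 was higher in FBs. Foxo1, a factor that can raise Cdkn1b, was higher in B cells, ECs and FBs and lower in myeloid cells by 1.33 ± 0.25, and Foxo3 was higher in airway cells (0.90 ± 0.22) and lower in ECs.

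Regulators of the Ink4 locus were called in 13 of 15 cases. Tbx2, a repressor of the locus, was higher in SMCs by 4.79 ± 0.50 (adjusted p = 2.9e-11, edgeR), in FBs and in mesothelial cells, and Tbx3 was higher in ECs (3.71 ± 0.44), FBs and SMCs. Ets1 was higher in T and NK cells (3.85 ± 0.20), B cells and ECs and lower in myeloid cells by 3.31 ± 0.33, and Ets2 was higher in myeloid cells (1.53 ± 0.24). Ezh2 and Cbx8, of the polycomb complexes that silence the locus, were higher in myeloid cells, where Cdkn2a was most frequent, as were Eed and Kdm6b, while Cbx7 was lower there and higher in lymphocytes. Suz12 was higher in B cells, Bmi1 lower in T and NK cells, and Id1 and Id2 were higher in ECs and SMCs and lower in B cells.

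In the ARF arm, where p19ARF acts on Mdm2 and so on Trp53, 5 of 5 genes were called. Mdm2 was higher in myeloid cells by 1.74 ± 0.23 (adjusted p = 6.9e-09, edgeR) and lower in SMCs. Trp53 was higher in B cells by 1.25 ± 0.20 (adjusted p = 8.7e-07), Mdm4 and Npm1 were also higher in B cells, and Npm1 in T and NK cells. Cdkn1a, a target of Trp53, was higher in ECs (1.14 ± 0.27), FBs, mesothelial and myeloid cells and lower in B cells by 2.11 ± 0.40 and in T and NK cells.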

How the data were processed

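Counts are UMIs per gene and barcode, which the authors deposited unfiltered for 6 libraries after trimming with Cutadapt and alignment and counting with STARsolo on GRCm38.p6, with versions not given in the sources used here. Barcodes were kept as described above, doublets were removed with the scrublet method, and cells were clustered with scanpy 1.11.5 (2000 variable genes without the members, 40 components, 15 neighbours, Leiden resolution 1.0). Myeloid cells were clustered again, also without the members, 1 of which was among the variable genes and was taken out. A cluster was named where over 40% of a type's fixed markers were raised at least 2-fold, a limit that was set with the clusters already known. Of cells named both by cluster and by their own markers, 83.6% got the same name.

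Counts summed per library and type (10 or more cells) were tested with edgeR 4.0.16 (quasi-likelihood, TMM, library as a block between types) and Benjamini-Hochberg adjustment over all genes, with DESeq2 1.42.0 as an alternative. Single values used exact permutation tests. Scripts were tested on simulated data. Free RNA was read from barcodes under 100 UMIs, and a count of 0 was given a limit of 3 counts. Total UMIs set the precision, which is lowest in young wall cells.

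The members and lists were chosen with earlier results of these data known. The text names the members in each type, each called pathway gene, and the 5 genes most like each member among genes of 50 or more counts, except that 1 gene and the list that holds it are not reported here. Alternatives were filters on cells, genes and doublets, normalization, thinning, naming and leaving out libraries. Leaving B cells out unthinned, myeloid cells left out or alone, the libraries that share barcodes alone, and cycling cells within types were chosen after seeing the data. Of the 1107 unnamed cells, those in clusters of the myeloid class were tested as part of that class. The others entered no test between types. Genes were matched to GENCODE M21 by symbol.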

Additional observations from a re-analysis of the deposited data

Results flagged for a closer look

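Of 43 pairs tested for a single old library far from the other 3, 2 stood out, and chance gives about 1 in 20 independent pairs. The pairs joined a member with a cell class or with a pool, all kept cells or all but B cells. Pools and classes overlap, so the pairs were not independent. Cdkn2a in mesothelial cells was at 18.8 CPM in the 27-month library, from 13 counts in 4 cells, against 0 to 0.993 CPM in the other old libraries. Cdkn2c in myeloid cells was at 30.8 CPM in the 24-month library, against 7.61 to 8.91 CPM in the others.

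For Cdkn2c the old and young values did not overlap in FBs, SMCs, airway and myeloid cells, with differences of opposite sign. How often this holds over all genes was not counted, so it is a description. Of these types only FBs passed the gene filter of the main fit, through old libraries alone, with an adjusted p of 0.812 in edgeR. Old minus young was 22.9 CPM in FBs and 9.95 CPM in SMCs, where both young libraries were at 0 with limits above the old values. It was -8.51 CPM in airway cells and -29.8 CPM in myeloid cells, whose clusters differed between libraries. The difference between types was not tested, and with FBs named by each cell's own markers the fitted Cdkn2c difference was -0.70 (log2), so the opposition between FBs and myeloid cells was then lost.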

How the results depend on the processing

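No member was called with age in any of 17 settings, though without the 20-, 27- or 28-month library 6 pairs were tested against 15, and 4 members were called between types, 5 of 5 without TMM and 3 to 4 when a library was left out. Of folds between types 170 kept their call under an alternative and 31 did not. After thinning to 500 UMIs, 2 members could be tested between types and 1 was called, with fewer counts left. The old minus young share of cells with Cdkn2a was -0.153 thinned, -0.174 to -0.135 when a library was left out, and turned to 0.253 unthinned. The share of B cells with Cdkn2a was 4.79% in cells of at least 1000 UMIs, 0.12% thinned, and 0.134% to 2.82% when a library was left out, with 2.37% without the 24-month library. Unthinned, 4 members were called in cycling cells against 0 thinned, and Cdkn2b turned to 1.32. With a library left out none could be called, since the exact sign-flip test of 5 libraries allows no p under 0.0625. In cycling cells, leaving out 1 library put Cdkn2a between -0.0157 and 0.243 and Cdkn1c between -0.443 and 0.738, both lowest and turned without the 27-month library. TMM moved the split of calls: 74.2% of airway calls were higher with it and 41.0% without, 41.2% and 62.4% in T and NK cells, and 64.9% and 76.9% in mesothelial cells. The median fitted age change of all genes was 0.23 in FBs, 0.52 in SMCs (0.15 without TMM) and 0.15 in ECs. No paired analysis was possible because replicate numbers here only name libraries of different mice. Depth limits young FBs, SMCs and ECs most.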

Other observations

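Levels of members were also read in other small clusters, of which those led by Arhgef37 and Rbfox1 are parts of the myeloid and mesothelial classes compared above. An unnamed cluster of 39 cells led by Cxcl13, the B cell chemokine, and holding 30 cells of the young male had 84.6 CPM of Cdkn2c. Mast cells had 104 CPM of Cdkn1b, and the monocyte and dendritic cluster led by Arhgef37 had 98.4 CPM of Cdkn2d at 28 months and 12.9 CPM at 24 months. In the mesothelial cluster led by Rbfox1, Cdkn1c stood at 157 CPM at 28 months and 51.1 CPM at 27 months.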
